A study of Mus musculus with 6 samples.

Results

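The Slit, Robo, Dcc and Unc5 guidance genes were followed in retinal ganglion cells (RGCs) between late embryonic and early postnatal life. The set comprised the 10 genes Slit1, Slit2, Robo1, Robo2, Robo3, Dcc, Unc5a, Unc5b, Unc5c and Unc5d, picked by symbol from the 24060 genes of the count table. RGCs came from C57BL/6 mice at embryonic day 18 (E18) or postnatal day 5 (P5), without further treatment, and were purified by immunopanning, in which dissociated retinal cells are first cleared of macrophages and then held on dishes coated with an antibody against CD90 (Thy1). RNA was sequenced from 3 samples per age, numbered 1, 3 and 4 at E18 and 6, 8 and 9 at P5. The column of E18 replicate 1 is named with the numbers 1, 2 and 5, and whether it pools several preparations is not stated. The number of animals or preparations behind a sample is not given, so the tests measure the spread between these samples, which may be technical. The ages were chosen by the study to lie on either side of a developmental decline in the ability of RGCs to extend axons.

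Slit proteins are secreted cues that repel growing axons, and they act through receptors of the Robo family. Netrin 1 attracts axons through Dcc and repels them through Unc5 receptors, alone or together with Dcc. In the developing retina and optic pathway these systems are known for guiding RGC axons toward and into the optic nerve head and for shaping their course at the optic chiasm. Robo3 differs from its relatives, since in commissural neurons of the hindbrain and spinal cord it counters Slit repulsion before the midline is crossed.

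Library totals on genes ran from 81213639 to 114512853 reads. The cells carried RGC markers at a high level, with 8973 to 10260 counts per 1000000 (CPM) summed over 15 genes at E18 and 9394 to 10630 at P5. Single markers differed between the ages, with 3 of the 15 higher and 5 lower at E18. Thy1, the antigen used for panning, was among those lower at E18 (log2 fold change -1.16). CPM are counts scaled to library sizes normalized by the trimmed mean of M-values (TMM). Markers of microglia summed to at most 3.22 CPM and those of photoreceptors to at most 13.5 CPM in any sample. Markers of Müller glia and astrocytes summed to 404 to 448 CPM at E18 and 273 to 327 CPM at P5, with Glul (log2 fold change 0.35) and Vim (1.18) higher at E18 among 8 tested. The part of other cell types in the differences between the ages was not tested. E18 replicate 1 stood apart in 12 genes of dividing cells (346 CPM, against 143 and 90.2 in E18 replicates 3 and 4 and 69.7 to 87.2 at P5). E18 replicates 1 and 3 stood apart in the amacrine cell factor Tfap2b (47.5 and 119 CPM, against 1.62 in E18 replicate 4 and 1.02 to 1.55 at P5). Since RNA was measured in bulk, a change in the share of cells that express a gene and a change in RNA per cell cannot be told apart.

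Of the 10 guidance genes, Slit1, Robo1 and Dcc were higher at E18, Unc5a and Unc5d were lower at E18, and Slit2, Robo2, Robo3, Unc5b and Unc5c did not pass the test. The test was edgeR's quasi-likelihood test with Benjamini-Hochberg adjustment over the 16449 genes that passed its expression filter, with a threshold of 0.05, and all 10 guidance genes passed that filter. The 5 calls correspond to 50% of the set, against 43.4% of all genes tested, so the share of changed genes was near that of the whole transcriptome. Among all genes tested, 20.8% were higher and 22.5% lower at E18. In 5 of the 10 genes the E18 and P5 samples did not overlap, against 56.1% of all genes tested. The median log2 fold change of the set was 0.137, and that of all genes tested was 0.005. Fold changes are given as E18 over P5 on the log2 scale, with the standard error (SE) of the model.

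**Figure D1:**
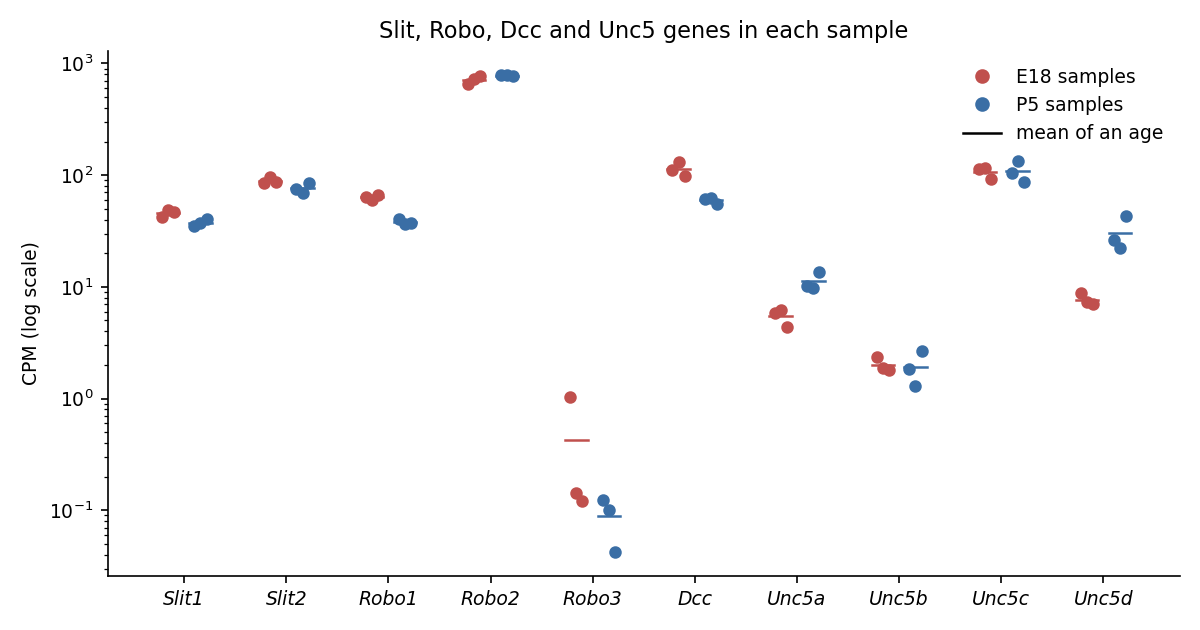
Expression of the 10 guidance genes in each of the 3 E18 and 3 P5 samples, as CPM on a log scale, with a line at the mean of each age. Robo2 lies far above the other genes, Robo1 and Dcc are higher in every E18 sample, and Unc5a and Unc5d are higher in every P5 sample.

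Among the Robo receptors, Robo1 was lower at P5 than at E18, whereas Robo2, the most abundant gene of the set, did not pass the test. Robo1 (ENSMUSG00000022883.11, chromosome 16 of mm10, bases 72308306 to 73046095 on the plus strand) had 63.8, 60.5 and 65.9 CPM in E18 replicates 1, 3 and 4, and 40.2, 36.5 and 37.0 CPM in P5 replicates 6, 8 and 9. Every E18 sample lay above every P5 sample. The level was 1.67-fold higher at E18 (log2 fold change 0.74 with SE 0.0900, edgeR quasi-likelihood adjusted p = 0.000611). Robo2 (ENSMUSG00000052516.19, chromosome 16 of mm10, bases 73891839 to 74411825 on the minus strand) had 653, 728 and 769 CPM at E18 and 794, 780 and 765 CPM at P5. The ages overlapped, and the lowest value was that of E18 replicate 1. The log2 fold change was -0.12, with a 95% confidence interval from -0.32 to 0.08 (edgeR adjusted p = 0.286).

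Robo3 was near the limit of detection. It had 85, 16 and 11 reads in E18 replicates 1, 3 and 4, the first of which may be a pool, and 11, 10 and 4 reads in P5 replicates 6, 8 and 9. Most of its reads came from E18 replicate 1, and the other E18 samples lay at or close to the P5 samples. The log2 fold change of 2.23 (SE 0.875) did not pass the test (edgeR adjusted p = 0.0677), and it was 0.57 without E18 replicate 1 (edgeR adjusted p = 0.486). It passed in 6 of the 12 other fits, with adjusted p from 0.0216 to 0.486 over all of them. The replicate with the high value was also the one with the highest level of dividing-cell genes. The 12 progenitor markers summed to 953 CPM in this replicate, 664 and 884 CPM in the other E18 samples and 523 to 666 CPM at P5, mostly from Pax6, which RGCs also express. Of these markers 6 were higher at E18 and none lower, with Sox2 at 45.7, 69.3 and 0.95 CPM in E18 replicates 1, 3 and 4 and at most 1.48 CPM at P5, and Ccnd1 at 146, 34.5 and 14.2 CPM at E18 and at most 10.9 CPM at P5. The part of such cells in the Robo3 reads was not tested.

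**Figure D2:**
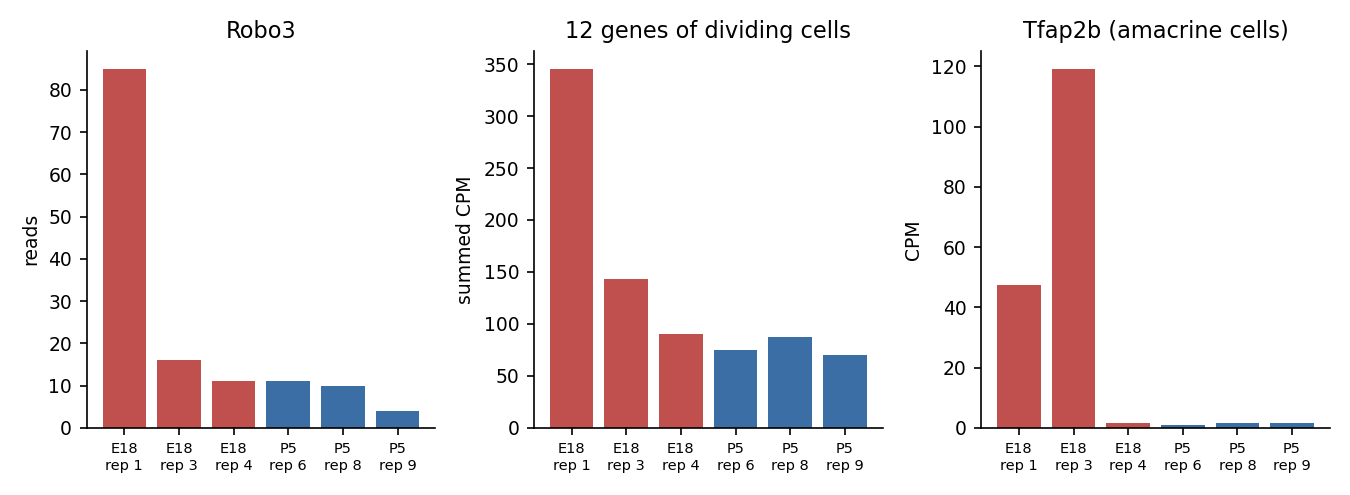
Reads on Robo3 (left), summed CPM of 12 genes of dividing cells (middle) and CPM of Tfap2b, an amacrine cell factor (right), in each E18 and P5 sample. Robo3 and the dividing-cell genes are highest in E18 replicate 1, and Tfap2b is high in E18 replicates 1 and 3 but not in E18 replicate 4.

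The makeup of the Robo family was compared within each sample, per kilobase of exon, which needs no scaling between libraries. Robo2 made up 90.5%, 92.1% and 91.9% of Robo reads per kilobase at E18, and 95.02%, 95.38% and 95.25% at P5. All P5 samples exceeded all E18 samples, with means of 91.5% ± 0.831 and 95.2% ± 0.182 (SD, n = 3 each; two-sided exact permutation p = 0.1, the smallest that 3 samples against 3 allow). Robo1 took 7.88% to 9.10% at E18 and 4.59% to 4.94% at P5. The share of Robo3 was at most 0.352% in any sample.

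Both Slit ligands were expressed by the purified cells, with modest differences between the ages. Slit1 (ENSMUSG00000025020.11, chromosome 19 of mm10, bases 41600257 to 41743665 on the minus strand) had 41.9, 48.8 and 46.6 CPM at E18 and 34.9, 37.1 and 40.3 CPM at P5. The ages did not overlap, but the lowest E18 value lay just above the highest P5 value. The level was 1.22-fold higher at E18 (log2 fold change 0.29 with SE 0.103, edgeR quasi-likelihood adjusted p = 0.0479). Omitting any 1 sample other than P5 replicate 9 removed the call of Slit1 (adjusted p from 0.0445 to 0.182 over the 6 omissions), and so did testing without the low-count filter (edgeR adjusted p = 0.0568). Slit2 (ENSMUSG00000031558.15, chromosome 5 of mm10, bases 47983138 to 48307733 on the plus strand) had 84.2, 95.3 and 87.7 CPM at E18 and 75.6, 69.9 and 85.4 CPM at P5. P5 replicate 9 reached into the range of E18, and the log2 fold change of 0.21 did not pass the test (95% confidence interval -0.02 to 0.44, edgeR adjusted p = 0.128). The share of Slit2 among Slit1 and Slit2 reads per kilobase was 31.2% ± 0.700 in E18 samples against 32.4% ± 1.63 in P5 samples (SD, n = 3 each; two-sided exact permutation p = 0.3). Which of these ligands was more abundant depended on the length used, since with the longest transcript in place of all exons Slit2 took 52.6% at E18 and 53.9% at P5.

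Of the receptors of netrin 1, Dcc was higher at E18 and Unc5a and Unc5d were higher at P5, whereas Unc5b and Unc5c did not pass the test. Dcc (ENSMUSG00000060534.16, chromosome 18 of mm10, bases 71253634 to 72351069 on the minus strand), which carries the attractive response, had 110, 132 and 98.3 CPM at E18 and 61.7, 62.7 and 54.9 CPM at P5. No E18 sample reached down to the P5 range, and E18 replicate 3 was the highest. The level was 1.90-fold higher at E18 (log2 fold change 0.93 with SE 0.122, edgeR quasi-likelihood adjusted p = 0.000857).

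Unc5d had the largest change of the set that passed the test. Unc5d (ENSMUSG00000063626.6, chromosome 8 of mm10, bases 28646717 to 29219636 on the minus strand) had 8.78, 7.27 and 7.02 CPM at E18 and 26.3, 22.1 and 43.2 CPM at P5. Each P5 sample was well above the E18 samples, and P5 replicate 9 was the highest. The level was 3.97-fold higher at P5 (log2 fold change -1.99 with SE 0.241, edgeR quasi-likelihood adjusted p = 0.000613), and without P5 replicate 9 the log2 fold change was -1.66. Unc5a (ENSMUSG00000025876.15, chromosome 13 of mm10, bases 54949411 to 55006018 on the plus strand) had 5.85, 6.16 and 4.39 CPM at E18 and 10.2, 9.83 and 13.5 CPM at P5. The ages did not overlap, and P5 replicate 9 was again the highest. The level was 2.04-fold higher at P5 (log2 fold change -1.03 with SE 0.189, edgeR quasi-likelihood adjusted p = 0.00331). P5 replicate 9 also had the highest level of Nefh, the heavy neurofilament subunit of mature axons (96.8 CPM, against 41.3 and 55.9 CPM in P5 replicates 8 and 6 and 15.5 to 20.8 CPM at E18). Other RGC markers did not all follow Nefh. Thy1 was also highest in this replicate (690 CPM), whereas Isl1 (207 CPM) and Pou4f1 (483 CPM) were at their lowest there. Amacrine markers summed to 1162 to 1507 CPM at P5 and 871 to 958 CPM at E18. Most of this came from Calb2, a gene that some RGCs also express. Of the 9 amacrine markers tested, only Calb2 was lower at E18 (log2 fold change -0.70), and 5 were higher. The part of such differences between samples in the Unc5 changes was not tested.

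Unc5c and Unc5b did not pass the test. Unc5c (ENSMUSG00000059921.15, chromosome 3 of mm10, bases 141465216 to 141834924 on the plus strand) was the most abundant Unc5 gene, with 113, 117 and 92.1 CPM at E18 and 106, 134 and 86.0 CPM at P5. Its highest and lowest values were both at P5, and the log2 fold change was -0.02 (95% confidence interval -0.39 to 0.35, edgeR adjusted p = 0.938). Unc5b (ENSMUSG00000020099.8, chromosome 10 of mm10, bases 60762593 to 60831581 on the minus strand), a receptor best known from blood vessels, had 2.38, 1.86 and 1.81 CPM at E18 and 1.83, 1.29 and 2.67 CPM at P5. The ages overlapped, and the log2 fold change was 0.06 (95% confidence interval -0.60 to 0.72, edgeR adjusted p = 0.874). The 9 endothelial and pericyte markers summed to 17.3 to 73.4 CPM at E18 and 15.9 to 19.1 CPM at P5. Most of the E18 sums came from Kdr alone (69.5, 62.9 and 14.1 CPM in E18 replicates 1, 3 and 4). Of the 8 tested, Kdr was higher at E18 (log2 fold change 2.68), and Pecam1 (-1.81), Tek (-1.80) and Rgs5 (-4.36) were lower. The endothelial gene Cdh5 was at most 0.0610 CPM in any sample, and the part of vessel cells in the Unc5b reads was not tested. Unc5b and Unc5c changed sign when single samples were left out.

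**Figure D3:**
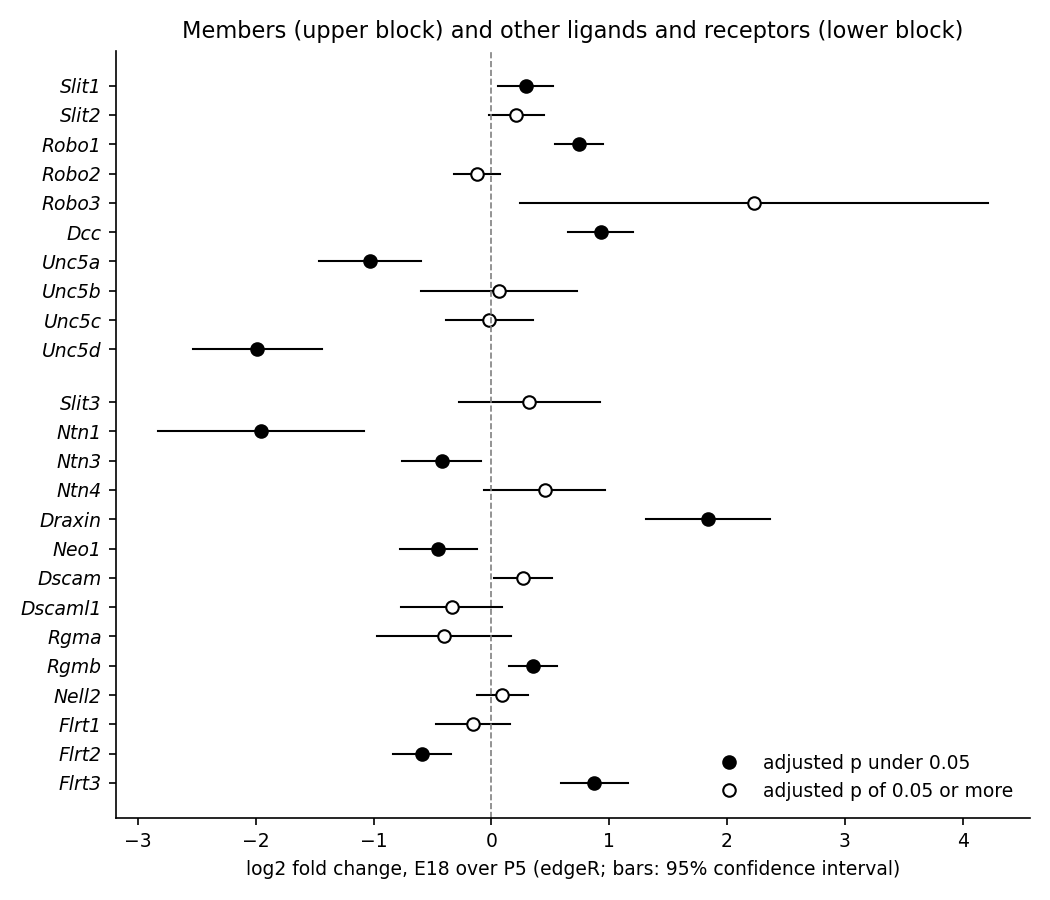
Log2 fold change of E18 over P5 with its 95% confidence interval from edgeR, for the 10 guidance genes (upper block) and the 14 tested genes among the other ligands and receptors (lower block), with filled points for adjusted p under 0.05. Dcc, Robo1, Draxin and Flrt3 lie to the right, Unc5a, Unc5d and Ntn1 lie to the left, and the interval of Robo3 is the widest.

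Within the Unc5 family, Unc5c made up 68.3%, 70.4% and 69.6% of reads per kilobase at E18, and 49.6%, 58.5% and 35.0% at P5. Unc5d took 9.11% to 11.1% at E18 and 20.1% to 36.5% at P5. In P5 replicate 9 the share of Unc5d (36.5%) exceeded that of Unc5c, which was not so in any other sample. With the longest transcript as the length of each gene, Unc5c held the largest share in every sample, with 51.1% in P5 replicate 9. Summed over the family, the level per kilobase was 6.91 to 8.65 CPM at E18 and 11.1 to 12.8 CPM at P5.

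Dcc was then set against the sum of the 4 Unc5 genes in the same sample. The log2 ratio per kilobase was -0.04, 0.21 and 0.11 in E18 replicates 1, 3 and 4, and -1.24, -1.33 and -1.62 in P5 replicates 6, 8 and 9. Dcc was thus near the level of the summed Unc5 genes in the E18 samples and below it in each P5 sample. The means were 0.09 ± 0.126 and -1.40 ± 0.199 (SD, n = 3 each), a difference of 1.49 on the log2 scale (two-sided exact permutation p = 0.1, the smallest that this design allows). With the longest transcript as length the mean ratio was -0.31 at E18 and -1.61 at P5, so the level of Dcc relative to Unc5 depended on the length used, and the difference between the ages kept its direction.

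**Figure D4:**
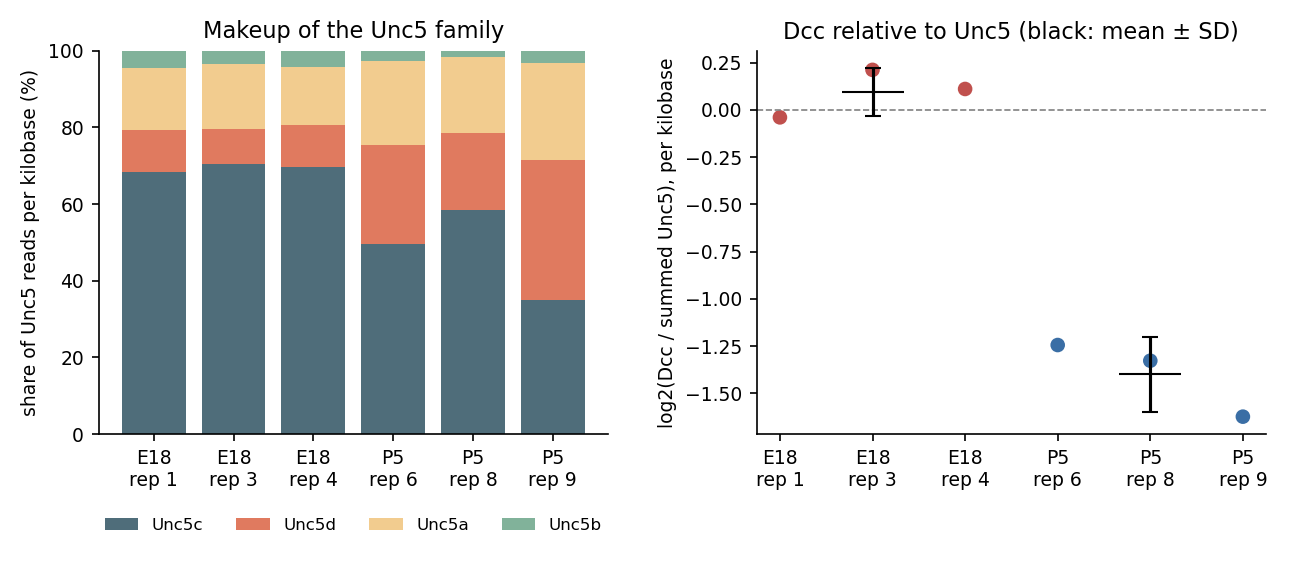
Share of each Unc5 gene in the Unc5 reads per kilobase of exon (left, %) and log2 ratio of Dcc to the summed Unc5 genes per kilobase (right, with mean ± SD of each age in black), in each E18 and P5 sample. Unc5d and Unc5a take a larger share at P5, and the ratio lies between -0.04 and 0.21 at E18 and between -1.62 and -1.24 at P5.

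The levels of the 10 genes were compared with each other per kilobase of exon. Robo2 was highest at both ages, with means of 42.2 ± 3.48 CPM per kilobase in E18 samples and 45.9 ± 0.855 in P5 samples (SD, n = 3 each), above 93.9% of the 15662 tested genes with an exon length. At E18, Dcc followed (8.62 ± 1.29), then Slit1 (7.72 ± 0.593), Unc5c (5.59 ± 0.685), Robo1 (3.84 ± 0.165), Slit2 (3.50 ± 0.224), Unc5a (1.31 ± 0.228), Unc5d (0.834 ± 0.103), Unc5b (0.322 ± 0.0497) and Robo3 (0.0627 ± 0.0753), each in CPM per kilobase. The samples of Dcc and Slit1 overlapped, as did those of Robo1 and Slit2. At P5 the genes from Slit1 (6.32 ± 0.457) through Unc5c, Dcc, Unc5d, Slit2 and Unc5a to Robo1 (2.29 ± 0.121) formed a series in which each overlapped the next. Dcc moved from position 2 to position 4, and Robo1 from position 5 to position 8. With the longest transcript as length, Robo2 remained first and Unc5b and Robo3 remained last at both ages, while Unc5c stood second. Dcc then moved from position 3 to position 5, and Robo1 only from position 5 to position 6.

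Upstream sequence is shown for Robo1, which was higher at E18, and for Unc5a, which was lower, as 250 bases that end just before the RefSeq start site, read 5′ to 3′ on the strand of the gene (build GRCm38.p6). Capitals mark matches to CANNTG, the E-box bound by basic helix-loop-helix factors, which reads the same way on both strands in this form. The Robo1 window is chr16:72662899-72663148 on the plus strand, which lies inside the GENCODE gene and thus before an internal start, not the first one annotated, and the Unc5a window is chr13:54949161-54949410 on the plus strand.
Robo1: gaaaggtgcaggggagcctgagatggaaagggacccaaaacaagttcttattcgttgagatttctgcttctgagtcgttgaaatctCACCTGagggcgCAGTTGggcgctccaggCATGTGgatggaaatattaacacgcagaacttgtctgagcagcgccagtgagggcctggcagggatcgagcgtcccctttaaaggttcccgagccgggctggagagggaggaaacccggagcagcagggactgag
Unc5a: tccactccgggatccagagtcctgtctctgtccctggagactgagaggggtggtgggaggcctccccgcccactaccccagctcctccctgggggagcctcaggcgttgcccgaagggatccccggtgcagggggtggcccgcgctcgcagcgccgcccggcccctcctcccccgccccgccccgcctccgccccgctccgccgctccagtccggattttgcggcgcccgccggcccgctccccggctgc

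The Robo1 window held 3 matches to CANNTG and the Unc5a window held none, whereas 66.2% of 32851 such windows in the RefSeq table held at least 1. Neither window held CCGGAA, the core of the site bound by Elk-1 and other Ets factors, on either strand, which was present in 12% of all windows. GC content was 56.0% in the Robo1 window and 76.8% in the Unc5a window, against a median of 52.4%, with 11 and 25 CpG dinucleotides against a median of 6. Windows were listed for 7 of the 10 genes. Among them CCGGAA was found only upstream of Unc5b, with 1 match. These matches describe the letters only.

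The other genes of these pathways were examined in lists of further ligands and receptors, of intracellular partners of Robo and of Dcc and Unc5, and of heparan sulfate synthesis. Of 58 genes, 56 were tested and 26 passed, 15 higher and 11 lower at E18, with a median log2 fold change of 0.084. These 46.4% were close to the 43.4% called among all genes. Only 11 passed without E18 replicate 3 (5 higher, 6 lower), and 17 passed without E18 replicate 1, P5 replicate 6 or P5 replicate 9. Without E18 replicate 4 the count was 18, and without P5 replicate 8 it was 31. Calls over the whole table also fell, from 7135 of 16449 genes with all samples to 4575 of 16775 without E18 replicate 3. They were 5110, 5589 and 5384 without E18 replicate 1, P5 replicate 6 and P5 replicate 9, and 8796 without P5 replicate 8.

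Of 16 further ligands and receptors, 14 were tested, 3 were higher and 4 lower at E18, and 7 did not pass. Draxin, a secreted repellent that binds Dcc, had 88.3, 99.1 and 97.4 CPM at E18 and 31.2, 32.2 and 16.2 CPM at P5. It was 3.58-fold higher at E18, without overlap between the ages (log2 fold change 1.84 with SE 0.232, edgeR quasi-likelihood adjusted p = 0.000721). Ntn1, the gene of netrin 1, was low in the purified cells, with 0.784, 0.883 and 0.806 CPM at E18 and 2.27, 1.98 and 5.37 CPM at P5. It was 3.88-fold higher at P5, with the highest value in P5 replicate 9, without which the log2 fold change was -1.36 (with all samples, log2 fold change -1.96 with SE 0.386, edgeR quasi-likelihood adjusted p = 0.00458). Flrt3 and Flrt2, membrane proteins that bind Unc5 receptors, moved in opposite directions. Flrt3 was higher at E18 (log2 fold change 0.87, edgeR adjusted p = 0.00118) and Flrt2 was lower (log2 fold change -0.59, edgeR adjusted p = 0.00344). Neo1, the relative of Dcc known as neogenin, was lower at E18 (-0.45), as was Ntn3 (-0.42), and Rgmb, which encodes a ligand of neogenin, was higher (0.35). The calls of Ntn3, Neo1 and Rgmb were lost in 7, 3 and 3 of the 13 other fits. Slit3 (0.32), Ntn4 (0.45), Dscam (0.27), Dscaml1 (-0.34), Rgma (-0.40), Flrt1 (-0.16) and Nell2 (0.09), the last a ligand of Robo3, did not pass. Robo4 and Ntn5 had at most 14 and 9 reads in any sample and were not tested.

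Of 13 intracellular partners and regulators of Robo, 4 were higher and 2 lower at E18. Nedd4, a ubiquitin ligase, was higher (log2 fold change 0.41, edgeR adjusted p = 0.00859), and its adaptors Ndfip1 (-0.61, edgeR adjusted p = 0.00159) and Ndfip2 (-0.32) were lower. Srgap1 (0.37), a Slit-Robo GTPase-activating protein, and the kinase gene Abl1 (0.44) were higher at E18. The calls of Srgap1, Abl1 and Ndfip2 were lost in 5, 4 and 2 of the 13 other fits. Usp33, a deubiquitinase that acts on Robo1, had a log2 fold change of -0.01 and did not pass.

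Of 20 intracellular partners and regulators of Dcc and Unc5, 7 were higher and 2 lower at E18. Enah, which extends actin filaments in growth cones, was higher (log2 fold change 0.77, edgeR adjusted p = 0.00289), as were Ptk2 (0.51), the focal adhesion kinase, and Trio (0.37), an activator of Rac, whose call was lost without E18 replicate 3. Myo10, a motor that carries cargo into filopodia, averaged 10.96 ± 0.622 CPM in E18 samples against 23.6 ± 3.83 CPM in P5 samples (SD, n = 3 each), the largest fall at E18 in the list (log2 fold change -1.10, edgeR adjusted p = 0.000730). Cdc42 was lower (-0.27), with its call lost in 5 of the 13 other fits. Of 9 genes of heparan sulfate, the sugar chain that Slit and Robo bind, 1 was higher and 3 were lower. The sulfotransferase genes Hs6st2 (-0.96) and Hs6st3 (-1.29) were lower at E18, and so was Sdc3 (-0.35), whereas Ext1 (0.35) was higher. The calls of Sdc3 and Ext1 were lost in 3 and 4 of the 13 other fits.

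Over the 6 samples, Pearson's r of log2 CPM was 0.926 between Robo1 and Dcc, 0.971 between Unc5a and Unc5d, and -0.948 between Dcc and Unc5d. These values are a description over samples that also share age and library. A small offset was added before the log, and it differed between these values and those of the most like genes below. Of the tested genes that averaged 10 CPM or more, the gene most like Dcc was Snrpf (r = 0.999). That most like Robo1 was 1110038F14Rik (r = 0.999), and that most like Unc5d was Mfsd4 (r = 0.9998). Pearson's r does not measure the size of a change. The log2 fold change was 0.58 for Snrpf against 0.93 for Dcc, and -1.81 for Mfsd4 against -1.99 for Unc5d. For 1110038F14Rik it was 0.19 against 0.74 for Robo1, and 1110038F14Rik did not pass the test (edgeR adjusted p = 0.203). The gene most like Robo3 was Ccna2, a cyclin of dividing cells (r = 0.970), with 27.9 CPM in E18 replicate 1 and 5.06 to 11.0 CPM in the other samples. Robo3 had 85 reads in that replicate and 4 to 16 in the others, so this r leans on 1 sample and is a description only.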

How the data were processed

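Immunopanned RGCs of 3 E18 and 3 P5 samples were sequenced by the authors in paired 100-base reads, with ribosomal RNA removed beforehand (the labels name polyA RNA). The authors aligned reads with STAR to mm10 and deposited raw counts per RefSeq gene from HT-seq. Neither strand setting nor the treatment of multiply mapped reads is stated in the sources used here, and 34 bases of Unc5a exons and 118 of Unc5c exons overlap genes on the opposite strand. The normalized counts deposited by the authors, a library-scaled signal, and the authors' EdgeR columns (log2 fold changes, p-values, false discovery rates and a rank) were not used. The name of the first E18 column holds the numbers 1, 2 and 5, and the column, which may be a pool, was assigned to E18 replicate 1. Replicates differed by more than sampling noise, with chi-square values of 30.5 to 141 per degree of freedom.

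Counts were normalized by TMM, filtered with filterByExpr (count minimum 10) and tested with edgeR 4.0.16 in R 4.3.3, by quasi-likelihood, and the scripts were tested on simulated data. Exon lengths and coordinates are those of GENCODE M21 on mm10, matched by symbol, and permutation tests used scipy 1.17.1. The reads were counted on RefSeq genes, so the lengths may include bases on which no reads were counted. Levels and shares per kilobase rest on these lengths. Members other than Robo3 had at least 127 reads in every sample. As alternatives, the likelihood ratio and exact tests of edgeR and the Wald test of DESeq2 1.42.0 were run, with other normalizations, filters and lengths, and the omission of each sample. The genes named are the 10 members, the further ligands and receptors, the 3 genes with the smallest adjusted p per direction in the other pathway lists, the most like genes and leading or contrasting markers. Tfap2b, Nefh, Thy1, Isl1, Pou4f1, Cdh5, Sox2, Ccnd1, Pecam1, Tek, Rgs5, Glul, Vim and Usp33 were chosen after their values were seen. The members and lists were chosen with earlier results of these data known.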

Additional observations from a re-analysis of the deposited data

How the results depend on the processing

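Without single samples, the genes called over the whole table ranged from 4575 (without E18 replicate 3) to 8796 (without P5 replicate 8), the guidance genes called from 4 to 5, and the other pathway genes called from 11 to 31. The other settings called 6366 to 7634 genes, 5 to 6 guidance genes and 24 to 26 other pathway genes. DESeq2 and edgeR's exact and likelihood ratio tests called Robo3 as well. So did the fits with no low-count filter, without E18 replicate 3 and without E18 replicate 4, in which Slit1 lost its call. Their count of 5 guidance genes thus held a different set of genes. Robo1, Dcc, Unc5a and Unc5d kept their direction and their call in all 13 other fits, with highest adjusted p of 0.00410, 0.00627, 0.0124 and 0.00428. Slit1 lost its call in 6 of 13. Unc5b reversed to -0.06 without E18 replicate 1 and to -0.18 without P5 replicate 8, and Unc5c to 0.08 without E18 replicate 4 and to 0.14 without P5 replicate 8, none of which passed. Over all omissions of a sample, Unc5b ranged from -0.18 to 0.37 and Unc5c from -0.16 to 0.14, and the cause was not tested. The difference in the log2 ratio of Dcc to Unc5 was 1.24 without length and 1.30 with the longest transcript, and 1.38 to 1.57 without single samples. Robo3 could not be fitted under the stricter filter. No paired analysis was possible because the ages share no replicate number. Depth limits Robo3, with at most 85 reads in a sample, whereas every other guidance gene had at least 127.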
